A study of Mus musculus with 3 samples.

Results

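The clustered protocadherins are the 57 protein-coding genes of mouse chromosome 18 whose GENCODE M21 names begin with Pcdha, Pcdhb or Pcdhg, out of 21938 protein-coding genes on chromosomes 1 to 19, X and Y. The rule uses gene names and position and no measured value, but the clusters were picked for description with earlier results of these data known. The Pcdha cluster held 14 of them, the Pcdhb cluster 22 and the Pcdhg cluster 21. The annotation gives the name Pcdha11 to 2 genes with different identifiers, and each was kept as a gene of its own.

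Protocadherins of these clusters are cadherin-like proteins of the cell surface that bind copies of themselves on neighbouring cells, and neurons use combinations of them to tell their own branches from those of other cells. In the Pcdha and Pcdhg clusters, each variable exon has its own promoter and is spliced to constant exons shared by the whole cluster, whereas each Pcdhb gene is a single variable exon with no shared part. Promoters of the alternate genes are picked at random in single neurons with the help of distant enhancers, CTCF and cohesin, while the C-type genes at the ends of the Pcdha and Pcdhg clusters are used more evenly.

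Accessible chromatin had been profiled by ATAC-seq, which uses a transposase to insert adapters into open DNA, in HM1 (129) mouse embryonic stem cells after 72 h of differentiation towards caudal epiblast-like cells (CEpiLCs). All 3 samples received 10 ng/ml bFGF and 5 µM LGK974, an inhibitor of WNT secretion, and from 2 days on also CHIR99021, an activator of WNT signalling. SOX2-ON and SOX2-OFF came from 1 engineered clonal line of genotype Sox2-/-, with a doxycycline-inducible Sox2 transgene in the HPRT locus. Doxycycline (1 µg/ml) was maintained during differentiation in SOX2-ON and withdrawn in SOX2-OFF, and the CEpiLC sample was wild type, from the parental TetON line, without doxycycline. Setting SOX2-ON against SOX2-OFF asks how accessibility differs with transgene induction, and the comparisons with CEpiLC ask how each state of the engineered line relates to the wild type. With 1 sample in each group there was no replicate error, and p-values are not reported. Differences between CEpiLC and the engineered line cannot be told apart from differences between the lines themselves.

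The SOX2-ON, SOX2-OFF and CEpiLC lists had 129843, 131520 and 130348 peaks, and read totals were not used. A −log10 q of at least 5 was reached by 48907, 45146 and 29219 peaks respectively. Peak values grow with depth and enrichment, so strength is given here as a rank percentile, the rank of a peak by −log10 p within its own list, with values near 0 for the strongest peaks and 100 for the weakest. Starts of 5 of 5 epiblast and pluripotency markers and of 6 of 6 caudal epiblast and streak markers had a peak in every list. So did 3 of 4 neuron markers and 3 of 4 fibroblast markers (Rbfox3 and Postn being the exceptions), so presence of a start peak did not separate these cell types. The start of Sox2 had a peak in all 3 lists, but the endogenous gene was disrupted by CRISPR and the extent of the change is not given in the sources used here, so this does not check the labels.

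The protocadherin window, from 50 kb before the first member to 50 kb after the last (chr18:36880184-37891873, mm10), was dense in peaks. SOX2-ON had 101 peaks there, and SOX2-OFF and CEpiLC 88 each. That was 99.8, 87.0 and 87.0 peaks per Mb, against 34.4, 35.5 and 37.4 per Mb over the whole of chromosome 18. The window is also dense in genes, since its 1012 kb hold the 57 members, out of 513 coding genes on chromosome 18. Of its merged sites, 52 lay at coding starts, 37 at other coding exons and 22 outside both. The part of gene density in the density of peaks was not tested. Peaks covered 83.4 kb of the window in SOX2-ON, 92.3 kb in SOX2-OFF and 71.7 kb in CEpiLC, with median widths of 730, 878 and 596 bp. Over each whole list the median width was 621, 741 and 526 bp, so the order of the samples by width was that of the lists. The Pcdhg cluster was the densest, with 228 peaks per Mb in SOX2-ON and 183 per Mb in both SOX2-OFF and CEpiLC. The Pcdhb cluster held 104 to 108 peaks per Mb and the Pcdha cluster 66.0 to 77.7.

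**Figure D1:**
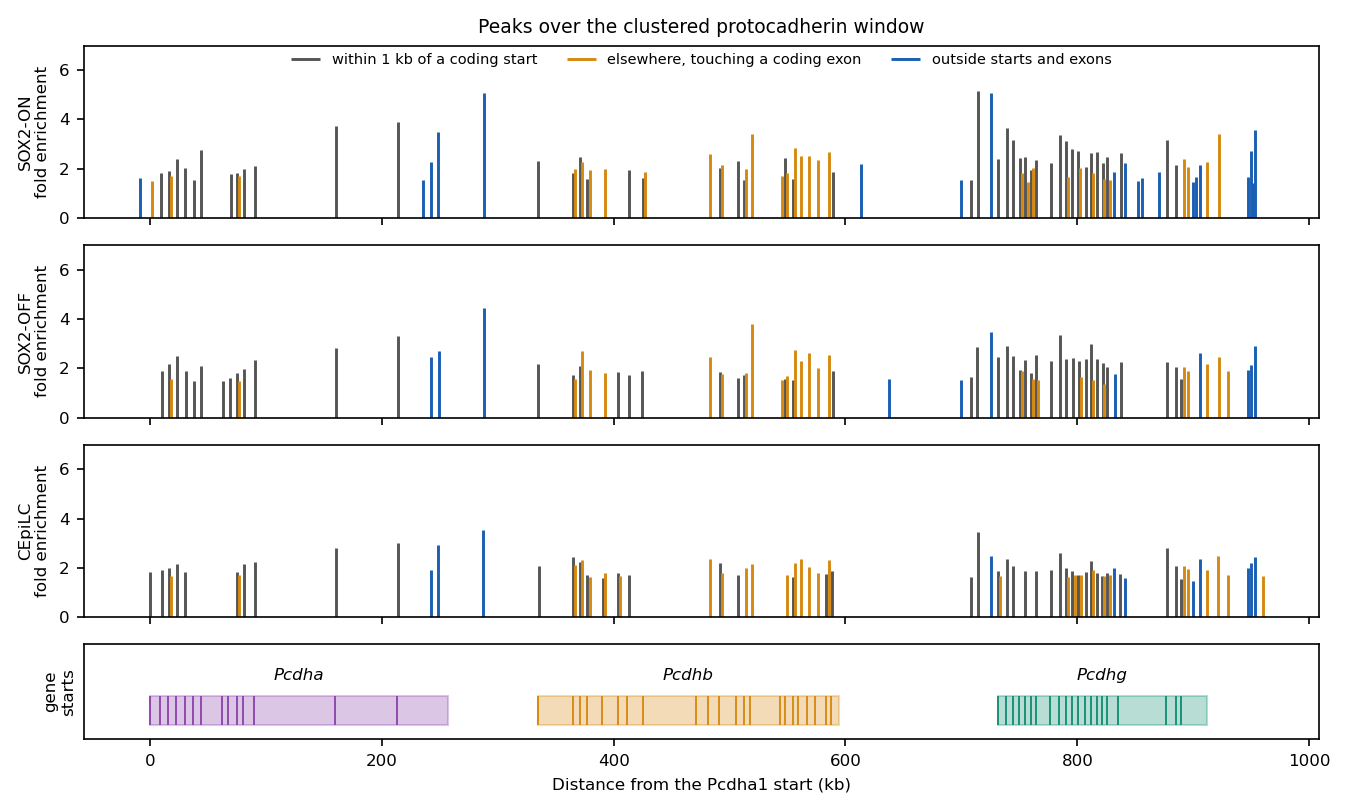
Fold enrichment of the strongest peak of each site against distance from the Pcdha1 start in kb, with 1 panel for each sample and the gene starts of the 3 clusters below. Grey lines are peaks within 1 kb of a coding start, orange lines other peaks that touch a coding exon, and blue lines peaks outside both. The tallest blue line between the Pcdha and Pcdhb clusters reaches 5.07 in SOX2-ON, 4.43 in SOX2-OFF cells and 3.52 in CEpiLCs.

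A start peak was a deposited peak that overlapped the stretch from 1 kb before to 1 kb after the annotated start of a gene. In SOX2-ON, 41 of the 57 protocadherins had one (71.9%, with a Wilson 95% interval of 59.2 to 81.9). In SOX2-OFF 45 did (78.9%, interval 66.7 to 87.5), and in CEpiLC 40 (70.2%, interval 57.3 to 80.5). Over all protein-coding genes the shares were 70.7% in SOX2-ON, 71.5% in SOX2-OFF cells and 72.1% in CEpiLCs, all inside those intervals. These intervals cover counting error over genes only. Each member with a start peak had a peak of its own, so none was counted for 2 members. A start peak was listed in all 3 samples for 33 members, in 1 or 2 samples for 17 and in none for 7. With only peaks at a −log10 q of at least 5 counted, 31, 36 and 15 members kept a start peak (54.4%, 63.2% and 26.3%), against 64.3%, 65.1% and 62.2% of all coding genes. That limit keeps fewer peaks of the CEpiLC list than of the others. Among the strongest 50000 peaks of each list, 32, 37 and 30 members kept one (56.1%, 64.9% and 52.6%), against 64.5%, 65.7% and 65.8%.

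Presence was close to that of coding genes as a whole, but the peaks themselves were weak. The median member start peak ranked at 22.3% of the SOX2-ON list, 21.7% of the SOX2-OFF list and 31.6% of the CEpiLC list. The median over all coding genes with a start peak was 6.35%, 6.25% and 6.67%. None of the 41, 45 and 40 member peaks ranked ahead of that coding median in its list. Member start peaks were also narrow, with median widths of 725, 928 and 588 bp against 1318, 1429 and 1362 bp over coding genes. Only 3 of the 57 starts were CpG-rich by the limits used here, an observed-to-expected CpG ratio of at least 0.6 and a GC content of at least 50% over 500 bp either side, whereas 9738 of the 21938 coding starts were. All 3 were C-type genes. Coding genes without such a start had a start peak in 47.8%, 49.1% and 50.4% of cases, at median ranks of 14.3%, 12.4% and 13.2%.

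Other gene families give a scale for these values. The 12 non-clustered protocadherins listed, which are adhesion genes scattered over the genome, had a start peak in 11 cases in SOX2-ON and in all 12 in SOX2-OFF and CEpiLC, at median ranks of 14.2%, 13% and 11.9%. The 39 Hox genes, which set position along the body axis, had 34, 36 and 36 start peaks at median ranks of 15.4%, 15% and 16.3%. The 67 replication-dependent histone genes had 61, 62 and 62, at 4.70%, 6.28% and 6.25%. Olfactory receptor genes, another large clustered family chosen from at random in neurons, had start peaks at only 57, 53 and 71 of 1135 genes, at medians of 60.9%, 62.4% and 54.2%. The protocadherin clusters thus lay between the Hox and the olfactory receptor genes in rank and far above the latter in presence.

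**Figure D2:**
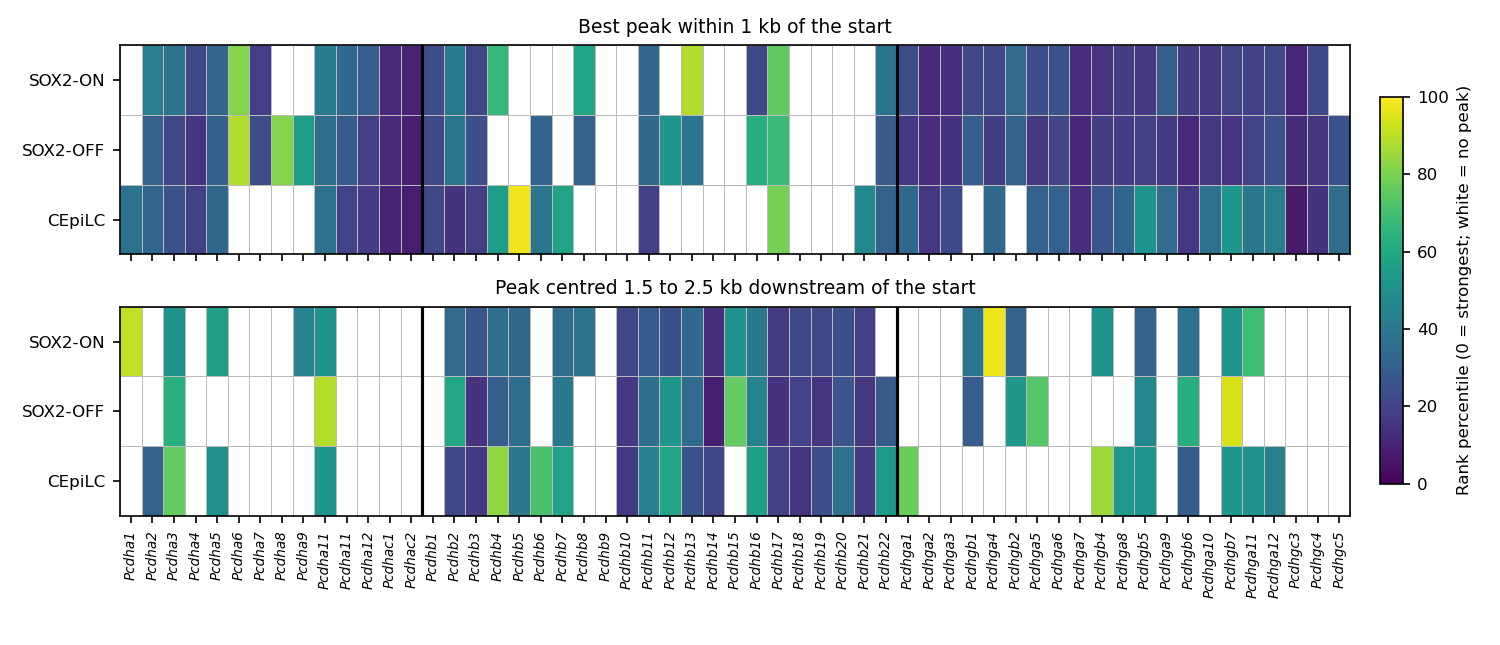
Rank percentile of each of the 57 members in each list, in genome order, with the clusters parted by black lines and white for no peak. The upper panel gives the best peak within 1 kb of the start and the lower panel a peak centred 1.5 to 2.5 kb downstream of it, which 18 of 22 Pcdhb genes had in every one of the 3 lists taken singly.

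The C-type genes carried the strongest start peaks. Pcdhac2, the last variable exon of the Pcdha cluster (start at chr18:37143503), ranked at 9.58% in SOX2-ON, 8.57% in SOX2-OFF cells and 8.0% in CEpiLCs, with fold enrichments of 3.90, 3.31 and 3.00. Pcdhac1 (start at chr18:37090013) ranked at 10.9%, 12.1% and 9.90%, with folds of 3.73, 2.83 and 2.81. Pcdhgc3, the first C-type gene of the Pcdhg cluster (start at chr18:37806364), ranked at 10.5%, 12.4% and 6.92%. These genes were among the 3 best-ranked members of SOX2-ON and of CEpiLC, and in SOX2-OFF Pcdhac2 was the best ranked.

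Of the C-type genes, Pcdhgc4 and Pcdhgc5 were weaker. Pcdhgc4 ranked at 22.3% in SOX2-ON, 15.3% in SOX2-OFF cells and 14.8% in CEpiLCs. Pcdhgc5, the last member of the Pcdhg cluster, had no start peak in SOX2-ON, a peak of 252 bp at 25.8% in SOX2-OFF and a peak of 237 bp at 35.3% in CEpiLC. Its start had a CpG ratio of 0.233, the lowest of the C-type genes, against 0.564 to 0.797 for the others. Start peaks of C-type genes were wide, with a median of 1746 bp in SOX2-ON, 2159 bp in SOX2-OFF and 2163 bp in CEpiLC, and none of the 5 genes had a separate peak centred 1.5 to 2.5 kb downstream.

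Of the 12 alternate Pcdha genes, 9 had a start peak in SOX2-ON, 11 in SOX2-OFF cells and 8 in CEpiLCs, at median ranks of 33.5%, 30.3% and 29.1%. Pcdha4 had the best-ranked alternate start in SOX2-OFF, with 22.1% in SOX2-ON, 15.6% in SOX2-OFF cells and 19.4% in CEpiLCs. Pcdha12, the last alternate gene, ranked at 29.3%, 18.2% and 17.6%, with peaks of 2548, 2619 and 2634 bp. Both were present in all 3 samples. Pcdha7 was listed at 18.1% in SOX2-ON and 22.9% in SOX2-OFF and had no start peak in CEpiLC. Pcdha1, the first gene of the cluster, showed the opposite pattern, with 37.4% in CEpiLC and no start peak in SOX2-ON or SOX2-OFF. Pcdha6 (81.3% and 88.6% in SOX2-ON and SOX2-OFF) and Pcdha8 (81.3% in SOX2-OFF) stood near the weak end of the lists. Pcdha9, with a start peak in SOX2-OFF alone, stood near the middle (55.4%).

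The alternate Pcdhg genes formed the most regular row of start peaks. All 18 had one in SOX2-ON and in SOX2-OFF, and 16 in CEpiLC. The midpoint of the start peak lay downstream of the start at 19 of 20, 19 of 21 and 18 of 19 Pcdhg members, with medians of 296, 314 and 224 bp. In SOX2-ON the ranks ran from 12.1% to 34.0% with a median of 19.5%. In SOX2-OFF they ran from 10.4% to 31.2% with a median of 17.2%. In CEpiLC they ran from 12.6% to 53.0% with a median of 32.5%, and the 3 ranges overlapped. Pcdhga7 was the best-ranked alternate gene in SOX2-OFF and CEpiLC, with 13.4% in SOX2-ON, 10.4% in SOX2-OFF cells and 12.6% in CEpiLCs. Pcdhgb6, the next in SOX2-OFF, ranked at 17.7%, 11.3% and 16.4%. Pcdhga1, the first gene of the cluster, ranked at 23.2%, 16.9% and 33.3%.

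The Pcdhb genes differed most from the other clusters. In SOX2-ON 10 of the 22 genes had a start peak (45.5%, with a Wilson 95% interval of 26.9 to 65.3), and in SOX2-OFF and CEpiLC 11 each did (50%, interval 30.7 to 69.3). These intervals lay below the shares over all coding genes, but none of the 22 starts was CpG-rich, and the shares of 47.8%, 49.1% and 50.4% over coding genes without a CpG-rich start lay inside them. All 7 members without a start peak in any list were Pcdhb genes: Pcdhb9, Pcdhb10, Pcdhb14, Pcdhb15, Pcdhb18, Pcdhb19 and Pcdhb20. Pcdhb1, the first gene, had a steady start peak at 23.5%, 21.7% and 21.2%. Pcdhb3 was the best-ranked Pcdhb start in SOX2-ON, at 21.3%, 23.9% in SOX2-OFF and 18.4% in CEpiLC. Pcdhb2 ranked at 41.0% in SOX2-ON, 39.4% in SOX2-OFF cells and 14.5% in CEpiLCs. Pcdhb22, the last gene, ranked at 38.6%, 28.4% and 31.1%, with wide peaks of 2222 and 2402 bp in SOX2-ON and SOX2-OFF that reached far into the exon.

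Most Pcdhb genes had a peak inside the long exon, with or without a start peak. A downstream peak was defined as 1 whose midpoint lay 1.5 to 2.5 kb past the start, limits that were set after the peaks had been seen. It was present at 18 of 22 Pcdhb genes in SOX2-ON, 18 in SOX2-OFF cells and 18 in CEpiLCs (81.8% in each, Wilson 95% interval 61.5 to 92.7). Over all coding genes, 4.73% had such a peak in SOX2-ON, 4.63% in SOX2-OFF cells and 6.04% in CEpiLCs. The equal counts hold for the deposited lists. At a −log10 q of at least 5 they were 15, 10 and 7, against 2.41%, 2.33% and 1.91% of coding genes, and among the strongest 50000 peaks 16, 13 and 10, against 2.44%, 2.5% and 2.87%. At 16 Pcdhb genes it was listed in all 3 samples and at 20 in at least 1, and only Pcdhb1 and Pcdhb9 had none. Its midpoint lay at a median of 2006, 2005 and 2039 bp. The median length of the first annotated exon was 3634 bp.

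In SOX2-ON and SOX2-OFF the strongest of these was at Pcdhb14, named, like the genes in the next sentences, after the values were seen. This gene had no start peak, but its downstream peak ranked at 13.5% in SOX2-ON, 8.55% in SOX2-OFF cells and 20.4% in CEpiLCs, with fold enrichments of 3.40, 3.81 and 2.15. The merged peak of Pcdhb14 lay at chr18:37449147-37450115. The best-ranked downstream peak of a Pcdhb gene in CEpiLC was that of Pcdhb18, at 15.4%. Pcdhb17 had a start peak at only 75.4%, 67.7% and 79.1%, and a downstream peak at 17.3%, 14.1% and 18.8%. Pcdhb21 had a start peak only in CEpiLC (46.8%), and a downstream peak at 19%, 15.7% and 16.8%. For all of these genes the peak inside the exon was the stronger in every list in which both were present. Of the 7 genes without a start peak, only Pcdhb9 lacked a downstream peak in all lists, and Pcdhb15 lacked it in CEpiLC.

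Where a Pcdhb gene had separate start and downstream peaks, the downstream peak ranked better at 6 of 8 genes in SOX2-ON, 4 of 6 in SOX2-OFF and 4 of 9 in CEpiLC. The Pcdhgb genes also had downstream peaks, at 6 of 6 genes in SOX2-ON, 5 in SOX2-OFF cells and 4 in CEpiLCs. There the start peak was the better ranked at 5 of 6, 4 of 5 and 3 of 4 genes. The Pcdhga genes, which alternate with them along the cluster, had a downstream peak at 2, 1 and 4 of 12. Of the alternate Pcdha genes, 5, 2 and 4 of 12 had one. These counts rest on the midpoint of a peak, and wide start peaks also reach this stretch. At 1550 bp past the start, peaks covered 66.7%, 41.7% and 25% of the alternate Pcdha genes and 20%, 60% and 60% of the C-type genes.

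**Figure D3:**
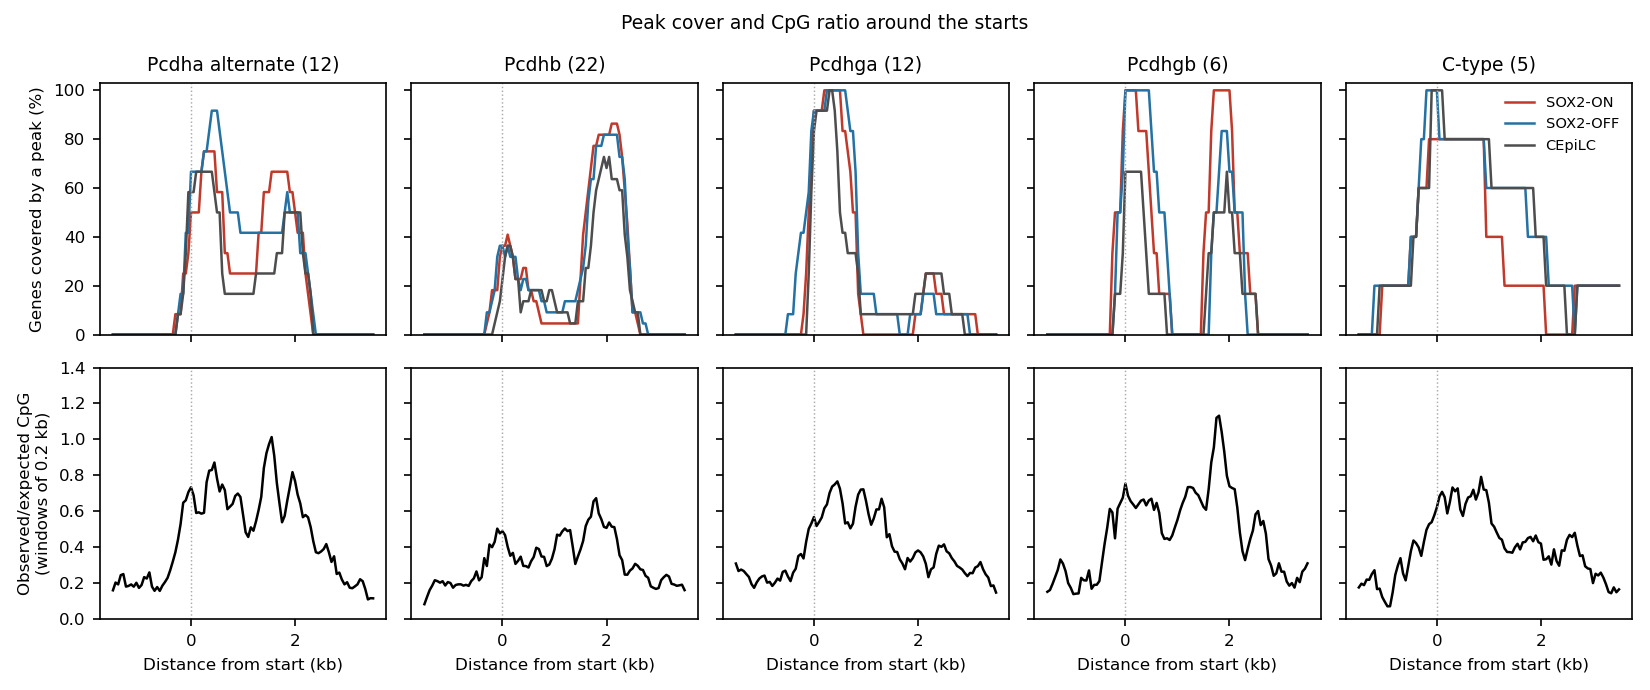
Upper panels give the percentage of genes of each type covered by a peak at each distance from the start in kb, with 1 line for each sample, and lower panels the observed-to-expected CpG ratio pooled over the genes. Pcdhb genes show a low rise at the start and a second one near 2 kb that reaches 86.4% of genes in SOX2-ON, 81.8% in SOX2-OFF cells and 72.7% in CEpiLCs.

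The CpG ratio also varied along these stretches, without following peak cover throughout. At Pcdhb genes the pooled CpG ratio was 0.201 at 1000 bp before the start, rose to 0.503 at 100 bp before it and reached its highest downstream value of 0.673 at 1800 bp. At Pcdhgb genes it reached 1.13 at 1800 bp, and at Pcdhga genes the highest value between 1.5 and 2.5 kb was 0.416. At alternate Pcdha genes it reached 1.01 at 1550 bp, although few of them had a separate downstream peak. At 1200 bp it was 0.504 at Pcdhb genes, where peaks covered 4.55%, 13.6% and 9.09% of them, and 0.735 at Pcdhgb genes, where peaks covered none. Over 500 bp either side of the start, the median CpG ratio was 0.684 for alternate Pcdha, 0.593 for alternate Pcdhg, 0.670 for C-type and 0.378 for Pcdhb genes. Pcdhb genes with a start peak in all 3 lists had a median ratio of 0.435, those with 1 in 1 or 2 lists 0.384 and those with none 0.309, with ranges that overlapped (0.211 to 0.519, 0.219 to 0.489 and 0.158 to 0.423). GC content did not follow the same order, with medians of 41.0%, 41.6% and 41.5%. The part of base composition in the presence of a peak was not tested.

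The CTCF core, a short form of the motif of the CTCF protein that anchors loops to these promoters, was searched on both strands. The search allowed no mismatch at the set positions of the core, so lack of a match does not show that a CTCF site is absent. A match was found within 500 bp of the start at 1 of 57 members and at 8.88% of all coding genes. Further downstream the matches fell into 2 sets, whose limits were drawn after the matches had been seen. On the gene's own strand, 300 to 700 bp past the start, 7 of the 12 alternate Pcdha genes had a match, at a median of 560 bp, against 1.56% of coding genes. On the other strand, 2200 to 2600 bp past the start, 13 of the 22 Pcdhb genes had a match, at a median of 2387 bp, against 1.75% of coding genes. Of these 13 Pcdhb matches, 9 lay inside a peak in SOX2-ON, 10 in SOX2-OFF cells and 5 in CEpiLCs. No Pcdhg or C-type gene had a match in either stretch. The Pcdhb genes share sequence by descent, so these matches are not independent of each other.

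Over the whole window there were 55 CTCF core matches, of which SOX2-ON peaks held 17 (30.9%, with a Wilson 95% interval of 20.3 to 44.0). SOX2-OFF peaks held 19 (interval 23.4 to 47.8) and CEpiLC peaks 12 (21.8%). Peaks covered 8.24%, 9.12% and 7.08% of the window. The letters CGCT, part of an element that Pcdh promoters share, were present on either strand within 500 bp of all 57 starts, but also at 85.9% of all coding starts. A match is a description of the letters and does not show that a protein is bound.

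Near-identical copies can leave reads unplaced, and GENCODE genes on the C57BL/6 reference may differ from the 129 strain used. Of the 50-base words within 500 bp of the starts of alternate Pcdha genes, a median of 15.7% also occurred elsewhere in the genome, and at C-type and Pcdhb starts the median was 0%. For the 7 members with no start peak in any list the median was 0% and the highest 7.98%, and for the 33 with a start peak in all lists these were 0.735% and 24.7%. In the stretch of the downstream peaks the median was 7.67% for Pcdhb genes. The effect of these repeats on the peak calls was not tested.

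Between SOX2-ON and SOX2-OFF, the start peaks were nearly the same set. A single member, Pcdhb4, had a start peak in SOX2-ON (66.9%) and none in SOX2-OFF (1.75%, Wilson 95% interval 0.310 to 9.29), where 2.14% of all coding genes did. In the other direction, 5 members had a start peak in SOX2-OFF and none in SOX2-ON (8.77%, 3.81 to 18.9), where 2.87% of coding genes did. These were Pcdha8, Pcdha9, Pcdhb6 (32.3%), Pcdhb12 and Pcdhgc5 (25.8%). The start peak of Pcdhb12 was also its downstream peak, which reached into the 1 kb limit in SOX2-OFF, and SOX2-ON had a downstream peak there too. Of the 40 members with a start peak in both, 26 ranked better in SOX2-OFF, with a median difference of 2.67 points, and 57.2% of coding genes did so. The peak was wider in SOX2-OFF at 32 of the 40 (80.0%), against 68.9% of coding genes.

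Against CEpiLC, more members differed in presence. In SOX2-ON but not in CEpiLC, 7 members had a start peak (12.3%, Wilson 95% interval 6.08 to 23.3), beside 2.67% of coding genes. They were Pcdha6, Pcdha7, Pcdhb8, Pcdhb13, Pcdhb16, Pcdhgb1 and Pcdhgb2. In SOX2-OFF but not in CEpiLC there were 10 (17.5%, 9.82 to 29.4), beside 2.69% of coding genes, namely the same 7 with Pcdha8, Pcdha9 and Pcdhb12. At a −log10 q of at least 5, 17 members were in SOX2-ON and not in CEpiLC and 22 in SOX2-OFF and not in CEpiLC, against 2.99% and 3.33% of coding genes, a limit that removes more of the CEpiLC list. Among the 7 and 10 members of the deposited lists, the best ranked in an engineered sample were Pcdha7 (18.1%), Pcdhgb1 (21.7%) and Pcdhb16 (22%), all in SOX2-ON.

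In CEpiLC but not in SOX2-ON, 6 members had a start peak (10.5%, Wilson 95% interval 4.91 to 21.1), where 4.05% of coding genes did. These were Pcdha1, Pcdhb5, Pcdhb6, Pcdhb7, Pcdhb21 and Pcdhgc5. The start peak of Pcdhb7 was also its downstream peak, and both other samples had a downstream peak at this gene, so the difference lay in where the peak began. In CEpiLC but not in SOX2-OFF there were 5 (8.77%, 3.81 to 18.9), where 3.34% of coding genes did, and these were Pcdha1, Pcdhb4, Pcdhb5, Pcdhb7 and Pcdhb21. Pcdhb5 (97.9%) was at the very end of the CEpiLC list. The 2 comparisons share the CEpiLC sample, so their overlap is not a second observation. Member start peaks ranked behind most coding start peaks, the part of that in these counts was not tested, and the shares are not read as particular to the clusters.

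Rank differed by cluster in the comparisons with CEpiLC. Of the 19 Pcdhg members with a start peak in SOX2-OFF and CEpiLC, 17 ranked better in SOX2-OFF, with a median difference of 14.3 points, whereas 56.0% of coding genes did so and their median difference was 0.239 points. Of the 18 with a start peak in SOX2-ON and CEpiLC, 14 ranked better in SOX2-ON, with a median difference of 9.22 points, against 48.3% of coding genes. Coding start peaks had median ranks of 6.35%, 6.25% and 6.67%, ahead of the Pcdhg medians of 19.5%, 16.9% and 31.8%. Coding start peaks of similar rank were not compared. Pcdhgb7 ranked at 20.2% in SOX2-ON, 15.2% in SOX2-OFF cells and 53.0% in CEpiLCs. Pcdhgb5 ranked at 16.7%, 18.7% and 51.9%. Both C-type Pcdhg genes with a start peak in all lists, Pcdhgc3 and Pcdhgc4, ranked better in CEpiLC in both comparisons. So did the C-type genes of the Pcdha cluster, Pcdhac1 and Pcdhac2. Among the strongest 50000 peaks of each list, 20, 21 and 15 of the 21 Pcdhg genes had a start peak (95.2%, 100% and 71.4%), beside the 64.5%, 65.7% and 65.8% of all coding genes given above.

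The other clusters gave different counts. Of 9 Pcdha members with start peaks in both, 8 ranked better in CEpiLC than in SOX2-ON, and 4 of 9 ranked better in CEpiLC than in SOX2-OFF. Of 7 Pcdhb members, 6 ranked better in CEpiLC than in SOX2-ON and 4 of 7 than in SOX2-OFF. Peak width differed too, since 15 of 19 Pcdhg start peaks were wider in SOX2-OFF than in CEpiLC (median ratio 1.69, against 1.02 over coding genes). Likewise 13 of 18 were wider in SOX2-ON than in CEpiLC (median ratio 1.33, against 0.974). Over each whole list the median width was 621 bp in SOX2-ON, 741 bp in SOX2-OFF and 526 bp in CEpiLC. The part of this list-wide difference in the Pcdhg ratios was not tested. With 1 sample per group and 2 cell lines, whether these differences exceed the spread between cultures is unknown.

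**Figure D4:**
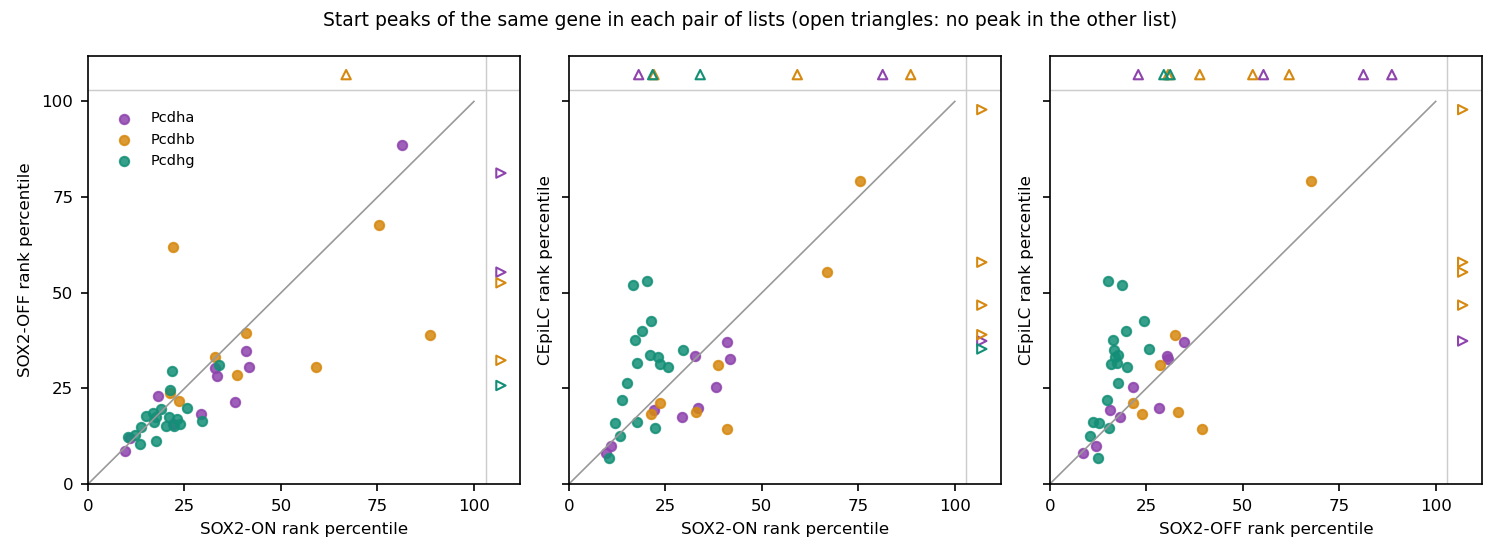
Rank percentile of the start peak of each member in 1 list against another, coloured by cluster, with lower values for stronger peaks, the grey line marking equal rank and open triangles at the margins marking members without a start peak in the other list. Most Pcdhg points lie above the line in both panels with CEpiLC on the vertical axis, 14 of 18 against SOX2-ON and 17 of 19 against SOX2-OFF.

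Outside the coding starts and the exons of coding genes, the window held 22 merged sites, here called intergenic although several lie in introns. Of these, 20 were present in SOX2-ON, 11 in SOX2-OFF cells and 11 in CEpiLCs. The matching share over all chromosomes was not computed for each list taken singly, but is given here for each combination of lists. In all 3 lists 9 were present (40.9%, Wilson 95% interval 23.3 to 61.3), against 20.2% of the 173550 sites of the same kind over all chromosomes. In SOX2-ON only there were 9 (40.9%, 23.3 to 61.3), against 18.9%. In SOX2-OFF only and CEpiLC only there was 1 each (4.55%, 0.807 to 21.8), against 16.74% and 22.35%. SOX2-ON shared 1 site with SOX2-OFF only, against 11.31%, and 1 with CEpiLC only, against 3.29%. SOX2-OFF and CEpiLC only held 0, against 7.295%. At a −log10 q of at least 5, SOX2-ON kept 9 of its 20 sites, SOX2-OFF 9 of its 11 and CEpiLC 7 of its 11. The 11 sites of a single list were weak and short, with a median rank of 60.4% and a median length of 309 bp. The 9 sites of all lists had a median best rank of 9.37% and a median length of 1059 bp.

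The strongest intergenic site lay between the Pcdha and Pcdhb clusters, at chr18:37216790-37218647, 29.1 kb past the end of the Pcdha cluster and 46.3 kb before the Pcdhb1 start, outside any annotated gene other than 3 read-through models that span the clusters. Its peak ranked at 5.08% in SOX2-ON, 4.21% in SOX2-OFF cells and 5.35% in CEpiLCs, ahead of every member start peak in all 3 lists. It held 1 CTCF core match. A second site of the Pcdha cluster, at chr18:37177957-37180628, lay between the shared exons that end at 37159353 and begin at 37184946. It ranked at 12.2%, 13% and 9.37%. Enhancers of the Pcdha cluster are known both between its constant exons and downstream of the last of them, and whether these peaks are the same elements was not tested. A weaker peak in the same intron, at chr18:37172233-37172929, ranked at 25.6%, 17.3% and 30.2%.

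Before the Pcdhg cluster, a site at chr18:37655301-37656359 lay over the annotated 5′ end of 3222401L13Rik, a long non-coding RNA gene of the plus strand that begins at 37655451. It ranked at 6.80% in SOX2-ON, 8.65% in SOX2-OFF cells and 14.3% in CEpiLCs, with folds of 5.08, 3.48 and 2.47. Within the Pcdhg cluster, a site at chr18:37835267-37836920 lay between the shared exons that end at 37833353 and begin at 37839903, and ranked at 19.9%, 8.82% and 9.43%. A site at chr18:37761347-37763729, over the polymorphic pseudogene Pcdhgb8, which was not a member, ranked at 37.6%, 32.3% and 25.5%.

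Downstream of the cluster, 3 sites present in all lists lay in introns of Diaph1, a gene of actin assembly transcribed from outside the window. The site at chr18:37883416-37884190 ranked at 8.22%, 8.53% and 11.5% and held 1 CTCF core match. The site at chr18:37879878-37880630 ranked at 11.4%, 12.7% and 13.3%, and that at chr18:37877247-37878188 at 42.1%, 22.7% and 22.1%. The best ranked site of SOX2-ON alone, at chr18:37771277-37772113 between Pcdhga12 and Pcdhgc3, stood at 25.1%.

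The other coding starts of the window were few. Taf7, which encodes a subunit of the general transcription factor TFIID and lies between the Pcdhb and Pcdhg clusters, had a start peak at 5.73%, 9.33% and 5.55%, ahead of every member in SOX2-ON and CEpiLC. Slc25a2, a mitochondrial carrier gene, had a weak one at 84.8%, 47.0% and 86.3%. The read-through models Gm37013 and Gm37388 had none, and the peak of Gm42416 was that of Pcdha4.

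Genes that act on these clusters were listed by role. Start peaks were present in every list at all 11 genes of CTCF, cohesin and its loaders and release factors, at median ranks of 2.85%, 2.5% and 2.68%. Of the 11 starts, 10 were CpG-rich. Coding genes with a CpG-rich start had a start peak in 99.45%, 99.42% and 99.33% of cases, at median ranks of 4.1%, 4.2% and 4.6%. The 11 of 11 is therefore not read as particular to this list. Stag1, encoding a cohesin subunit, was the weakest of the 11, at 83.5%, 32.6% and 43.4%. Of the 7 genes of DNA methylation and silencing, 6 had a start peak in SOX2-ON, 5 in SOX2-OFF cells and 6 in CEpiLCs. These were 85.7%, 71.4% and 85.7%, beside 70.7%, 71.5% and 72.1% of all coding genes. Smchd1, which helps silence the Pcdh clusters, ranked at 1.54%, 2.19% and 2.19%. Dnmt3b, a de novo DNA methyltransferase needed for random use of the clusters, ranked at 6.04%, 7.83% and 8.43%. Setdb1 ranked at 5.76%, 7.06% and 9.59%, and Dnmt3a at 7.35%, 10.25% and 11.97%. Dnmt3l ranked at 15.06% in SOX2-ON and 20.58% in CEpiLC, with no start peak in SOX2-OFF. Trim28 was weak, at 60.96% in SOX2-ON and 86.35% in SOX2-OFF, and had none in CEpiLC. Dnmt1 had a start peak only in CEpiLC, at 98.88%. Of the 7 silencing starts, 3 were CpG-rich. A start here is the outermost 5′ end of the gene record, so peaks at a promoter further inside the gene would not be counted. Ptk2 and Ptk2b, kinases that act downstream of protocadherins, had a start peak in all lists.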

How the data were processed

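One broad peak list per sample was deposited for 3 ATAC-seq libraries, each from 50000 cells with at most 12 PCR cycles. The authors aligned reads to mm10 and called peaks per sample with MACS2 (named in the submitters' processing notes) in nf-core/atacseq 1.0.0. Whether preparations were merged, and how cut positions were shifted, are not given in the sources used here, so widths are approximate. Fold enrichment, as deposited, is a ratio of pileup to the local background of that library. The deposited −log10 p and −log10 q come from the caller, and the deposited score was not used. Depth was not known.

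Members and lists were chosen with earlier results of these data known. GENCODE M21 gave the starts and exons, and GRCm38, the assembly that mm10 names, the sequence. The best-ranked overlapping peak stood for each start. Merged peaks of the 3 lists gave sites. Analyses used Python with numpy 2.4.6, pandas 2.3.3 and scipy 1.17.1. Peak assignment was tested on simulated data and recovered every placed peak. Its recovery at closely spaced starts, or with wide peaks such as those of these clusters, was not tested. Named members were the C-type genes, the first and last gene of each cluster, the 3 best-ranked starts of each list, members whose presence differed, the other coding genes and the best-ranked sites, and others are named as chosen later. Alternatives were windows of 250 bp and 2 kb, other starts, −log10 q of at least 2 or 5, the strongest 50000 peaks, rank by fold and ranks without chromosomes 6, 8 and 11.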

Additional observations from a re-analysis of the deposited data

How the results depend on the processing

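No paired analysis was possible because the groups hold 1 sample apiece, and leaving out a replicate was impossible for the same reason. Of 121 values under alternative settings, 95 stayed within 1.5 times the main count or within the 95% order-statistic interval of the median, and 26 did not. The causes were not tested. Medians of rank and width all stayed. At a −log10 q of at least 5, which fewer CEpiLC peaks reach, CEpiLC kept 15 member start peaks (main count 40), 35 window peaks, 7 intergenic sites and 7 Pcdhb downstream peaks. At that setting 17 members had a start peak in SOX2-ON and not CEpiLC, 22 in SOX2-OFF and not CEpiLC, 1 in CEpiLC and not SOX2-ON and 1 in CEpiLC and not SOX2-OFF (2.99%, 3.33%, 0.852% and 0.410% of coding genes). SOX2-ON then kept 64 window peaks and 9 intergenic sites, and SOX2-OFF 10 Pcdhb downstream peaks. In the strongest 50000 peaks, CEpiLC kept 57 window peaks and 10 Pcdhb downstream peaks, SOX2-ON kept 11 intergenic sites, and 2 members had a start peak in CEpiLC and not SOX2-OFF. With exons allowed, the sites outside starts numbered 51, 39 and 41 in SOX2-ON, SOX2-OFF and CEpiLC.

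Counts of presence that differed between lists moved with the window. Within 250 bp, 2 members were in SOX2-ON and not SOX2-OFF, 3 in SOX2-OFF and not SOX2-ON and 3 in CEpiLC and not SOX2-OFF. Within 2 kb, 3 were in SOX2-OFF and not SOX2-ON, 2 in CEpiLC and not SOX2-ON and 1 in CEpiLC and not SOX2-OFF, and the members with a start peak rose to 53, 55 and 48, since this window takes in many downstream peaks. At a −log10 q of at least 2, 0 members were in SOX2-ON and not SOX2-OFF and 2 in CEpiLC and not SOX2-OFF. The counts of Pcdhg members ranked better in SOX2-ON (14) and SOX2-OFF (17) than in CEpiLC were unchanged when ranks were taken by fold enrichment or without chromosomes 6, 8 and 11, alternatives chosen after seeing the data, as were those for the downstream peaks. A peak missing from a list was not called there, which does not show closed chromatin, and depth was not known.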
